A study of Mus musculus with 6 samples.

Results

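Coch, Otos, Otor, Pou3f4, Tbx18 and Emilin2 are 6 genes of cochlear fibrocytes and of the otic mesenchyme from which these cells arise, and they were picked by symbol from the 24411 gene symbols counted in each library. All 6 genes had counts in every library and all 6 passed the filter on low counts, which kept 15303 genes. Kir2.1-OE mice carry 1 copy each of an rtTA transactivator under the promoter of Otof, a hair cell gene, and of a tetO transgene for the inward rectifier K+ channel Kir2.1 that also holds tau-lacZ. Their littermate controls carry the Otof rtTA copy alone, and both groups were on the C57BL/6N background. Doxycycline (DOX) at 0.5 mg/ml was in the drinking water of the females during pregnancy and nursing, so unweaned pups of both groups were exposed through them. Each group comprised 3 libraries, and each library came from 1 pool of 8 cochleae of 4 mice at postnatal day 9, so the pool is the replicate and single animals were not measured. The transgene is driven in hair cells. By the study's methods the sensory epithelium was dissected out, whereas fibrocytes lie around it, and how much of the surrounding tissue the pools held was not measured.

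Fibrocytes fill the spiral ligament on the lateral wall of the cochlear duct and the spiral limbus on its inner side. They produce a collagen-rich matrix and, coupled by gap junctions, return K+ that leaves the hair cells towards the stria vascularis. They derive from periotic mesenchyme, in which the transcription factors encoded by Pou3f4 and Tbx18 act, and loss of either factor in mice disturbs the fibrocytes and hearing. Coch encodes cochlin, an abundant secreted matrix protein of the fibrocytes that is mutated in a dominant form of human deafness, Otos encodes the small fibrocyte protein otospiralin, and Otor encodes otoraplin, a small secreted protein of the MIA family. Emilin2 encodes a glycoprotein of elastin microfibrils that is known from the basilar membrane and the cells on its tympanic face.

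Of the 6 genes, Emilin2 and Coch were higher and Otor was lower in Kir2.1-OE mice, and Otos, Pou3f4 and Tbx18 were not called. Emilin2 rose 2.46-fold and Coch 1.55-fold, and Otor was 1.68-fold lower. Calls required more than a 1.5-fold change and an adjusted p below 0.05 in the quasi-likelihood (QL) test of edgeR, with Benjamini-Hochberg adjustment over all genes tested. By this rule 20.5% of all genes tested were called, 15.5% higher and 5.08% lower, that is 2365 genes and 778 genes, or 1897 and 1378 with upper quartile scaling in place of edgeR's TMM scaling. Over the 6 genes the median log2 fold change was 0.15, against 0.01 over all genes tested. The normalized counts, that is, counts after TMM scaling of the library sizes, did not overlap between the groups for Coch, Otor, Pou3f4 and Emilin2, and this held for 61.6% of all genes tested. In tissue pools a larger amount of an RNA per cell and a larger number of the cells that hold it cannot be told apart.

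**Figure D1:**
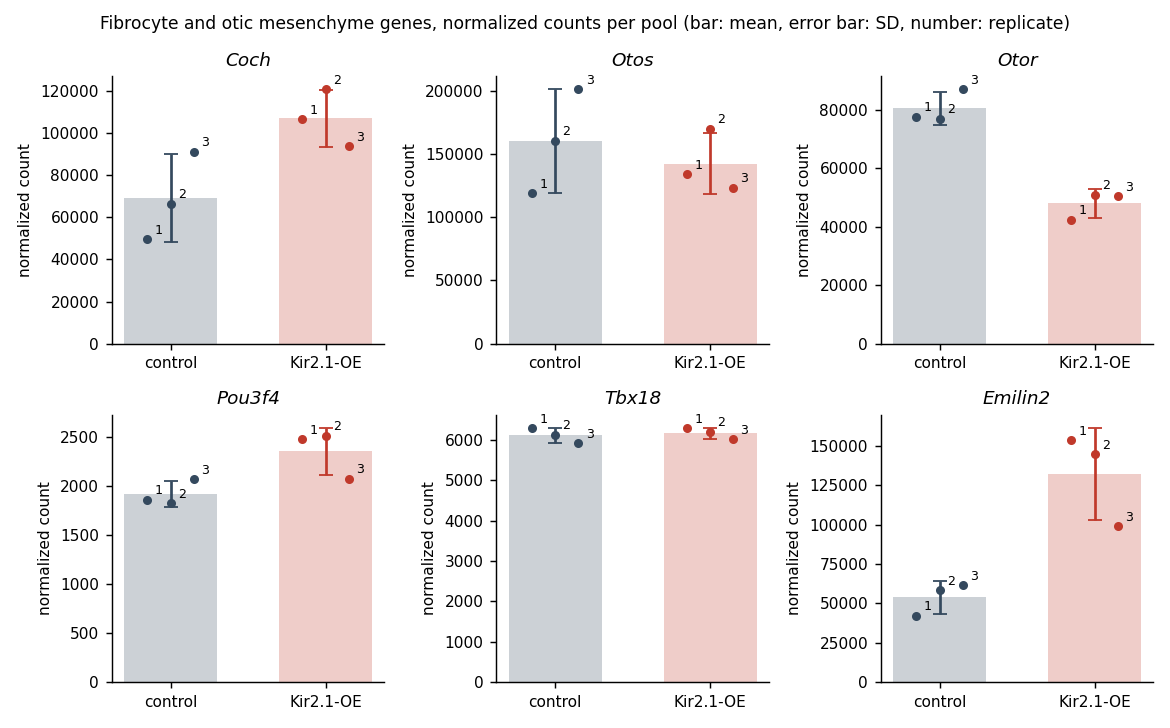
Normalized counts (y axis, linear from 0) of the 6 genes in each pool, with control in grey and Kir2.1-OE in red; bars are means of 3 pools, error bars are SDs and the numbers beside the points are the replicate numbers. Emilin2, Coch and Pou3f4 lie higher and Otor lower in every Kir2.1-OE pool than in any control pool, whereas the points of Otos and Tbx18 overlap.

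The libraries themselves held between 35430946 and 41205051 assigned reads after rounding. The targeted gene followed the labels, with 2213 to 3813 normalized counts of Kcnj2, which encodes Kir2.1, in the Kir2.1-OE pools and 226.0 to 235.8 in the controls. All 8 hair cell markers and all 5 supporting cell markers passed the count filter, and so did 7 of 8 cartilage and bone markers. The summed level of those 8 cartilage and bone markers, in CPM (counts scaled to the same library total), was 7743 to 8283 in the Kir2.1-OE pools. In control replicates 1, 2 and 3 it was 3541, 6158 and 6877 CPM, and of the 7 tested markers Acan and Dmp1 were called higher and 0 lower. Without Col9a1, the most abundant of them, the sum was 3201 to 3579 CPM in the Kir2.1-OE pools and 860 to 3355 CPM in the controls, which overlapped. Matn3 alone among them was at 0, in Kir2.1-OE replicate 2 and control replicate 3. Of the other marker lists, edgeR, DESeq2 and limma-voom each called 0 of 5 macrophage and 0 of 3 strial marginal cell genes. Among these, Csf1r, C1qa, Cx3cr1 and the strial gene Kcnq1 had adjusted p-values of 7.72e-04 to 0.0471 in the edgeR QL test but stayed under 1.5-fold. An adjusted p below 0.05 was reached by 50.8% of all genes tested. Called higher were 3 of 8 hair cell, 2 of 5 supporting cell, 4 of 5 neuron, 1 of 4 glia and 3 of 4 endothelial genes. Called lower were 2 of 5 supporting cell, 2 of 4 melanocyte and 3 of 5 erythrocyte genes. With the length and GC offsets, these calls were 1 hair cell, 1 supporting cell, 4 neuron, 3 glia and 2 endothelial genes higher and 2 melanocyte genes lower, with 0 supporting cell and 0 erythrocyte genes lower, and 2 cartilage and bone genes higher. Over all genes tested, 15.5% were called higher and 5.08% lower without offsets, and 8.43% and 2.20% with them. The lists are short, and their counts were not tested against these shares. Summed supporting cell markers stood at 4455 to 4928 CPM in the Kir2.1-OE pools and 5386 to 8239 CPM in the controls, but Tectb carried this sum. The other 4 markers together stood at 826 to 1126 CPM in the Kir2.1-OE pools and 569 to 713 CPM in the controls. Otog, at 27770 against 15890 normalized counts, took most of that remainder. Its longest transcript has 10043 nt, and its log2 fold change was 0.81, or -0.13 with the offsets. Erythrocyte markers stood at 289 to 367 and 477 to 1190 CPM, or at 108 to 151 and 146 to 396 CPM without Hba-a1. The part of these tissues in the fibrocyte gene values was not tested.

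The regions upstream of the 3 genes called without offsets are shown as a description. A link between their base composition and the direction of change was not tested. The 100 bases before the RefSeq start site (GRCm38.p6, the assembly also called mm10) are printed 5′ to 3′ on the strand of the gene, with CG dinucleotides in capitals and, in Otor, also the letters TATAAA. The window of Coch is at chr12:51593241-51593340 (+ strand), that of Otor at chr2:143078293-143078392 (+ strand) and the first of the 2 RefSeq windows of Emilin2 at chr17:71311557-71311656 (- strand). The RefSeq start of Otor lies upstream of the GENCODE start of the gene, and a short second transcript of Emilin2 overlaps its window in GENCODE.
Coch: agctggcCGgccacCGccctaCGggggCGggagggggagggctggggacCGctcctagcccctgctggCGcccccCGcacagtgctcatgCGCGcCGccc
Otor: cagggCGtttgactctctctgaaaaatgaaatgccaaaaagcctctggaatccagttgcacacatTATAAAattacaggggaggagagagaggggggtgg
Emilin2: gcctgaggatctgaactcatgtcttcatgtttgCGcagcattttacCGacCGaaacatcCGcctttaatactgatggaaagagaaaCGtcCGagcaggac
These 100 bases held 10 CG dinucleotides in Coch, 6 in Emilin2 and 1 in Otor, against a median of 3 over all 32851 RefSeq windows. Their GC content was 80.0%, 48.0% and 47.0% in the same order, with a median of 55.0% over all windows. In the second RefSeq window of Emilin2 the 100 bases before the start site held 6 CG dinucleotides and 55.0% GC.

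All 6 genes were matched to RefSeq promoter windows, which run from 250 bases before to 50 after a start site and give 7 windows here. The TATA box letters TATAAA were found on the strand of the gene in Otor, starting 35 bases before the start site, and on the opposite strand in Coch, as TTTATA from base 4 after the start site. Either orientation of these letters occurs in 13.6% of all windows. The POU octamer ATGCAAAT, searched because Pou3f4 encodes a POU factor, and the T-box motif AGGTGTGA, searched because Tbx18 encodes a T-box factor, were found on neither strand in any of the 7 windows, and occur in 1.74% and 1.28% of all windows. No motif match overlapped another. No binding or methylation was measured at these windows.

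Emilin2 (ENSMUSG00000024053.11) lies on chromosome 17 of mm10 from 71252172 to 71311978. Replicates 1 to 3 of Kir2.1-OE held 153524, 144726 and 98829 normalized counts of Emilin2, and the control pools 41951, 58307 and 61425. The lowest Kir2.1-OE pool, replicate 3, was thus above the highest control pool. The means were 132360 ± 29370 (SD, n = 3 pools) and 53895 ± 10460 (SD, n = 3). The log2 fold change of Emilin2 was 1.30 (standard error 0.185) and the edgeR QL test gave an adjusted p of 5.53e-04. The exact permutation test of Emilin2 alone gave p = 0.10 (two-sided), the smallest p that 3 pools against 3 allow. Emilin2 was called in all 19 alternative analyses, at log2 fold changes between 1.01 and 1.45.

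Coch (ENSMUSG00000020953.17) lies on chromosome 12 from 51593341 to 51605771. Replicates 1 to 3 held 106790, 121012 and 93825 normalized counts of Coch in the Kir2.1-OE group and 49688, 66561 and 91329 in the control group. The groups just failed to overlap, with Kir2.1-OE replicate 3 close above control replicate 3, and the spread was wider in the controls, at a coefficient of variation of 30.3% against 12.7%. The means were 107209 ± 13599 (SD, n = 3 pools) and 69193 ± 20945 (SD, n = 3). Coch thus differed by 0.63 on the log2 scale (standard error 0.193, edgeR QL test, adjusted p = 0.0214). The exact permutation test of Coch alone gave p = 0.10 (two-sided). The call of Coch rested on single libraries. It was lost without Kir2.1-OE replicate 1 (log2 fold change 0.62, adjusted p = 0.0672), Kir2.1-OE replicate 2 (0.51, adjusted p = 0.0776) or control replicate 2 (0.60, adjusted p = 0.0595) in the edgeR QL test. Without control replicate 1, the log2 fold change of 0.44 fell under the 1.5-fold threshold (edgeR QL test, adjusted p = 0.0436). Without Kir2.1-OE replicate 3 it was 0.71 and without control replicate 3 it was 0.88, and the call was kept in both. Upper quartile scaling also brought Coch, at 0.54, under the threshold.

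Otor (ENSMUSG00000027416.2) lies on chromosome 2 from 143078473 to 143081713. The Kir2.1-OE pools held 42460, 51001 and 50543 normalized counts of Otor, and the control pools 77774, 77012 and 87166. All Kir2.1-OE pools lay well below all control pools, and within each group the values were close together. The means were 48001 ± 4805 (SD, n = 3 pools) and 80651 ± 5655 (SD, n = 3). Otor fell by 0.75 on the log2 scale (standard error 0.0966, edgeR QL test, adjusted p = 3.57e-04), with p = 0.10 in the exact permutation test of this gene alone (two-sided). Otor was called in each of the 6 fits that left out 1 library, at log2 fold changes between -0.82 and -0.68. It was not called once transcript length and GC content were accounted for (log2 fold change -0.24).

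Otos (ENSMUSG00000044055.5) lies on chromosome 1 from 92644218 to 92648841. Its normalized counts were 133876, 169779 and 123278 in the Kir2.1-OE pools and 118680, 160302 and 200938 in the control pools, so that the Kir2.1-OE values lay inside the range of the controls. The means were 142311 ± 24371 (SD, n = 3 pools) and 159973 ± 41130 (SD, n = 3). Otos differed by -0.17 on the log2 scale (standard error 0.183, edgeR QL test, adjusted p = 0.469), and this turned to 0.029 when control replicate 3 was left out. In the controls, replicate 1 was lowest and replicate 3 highest for Otos, Coch and Emilin2 alike, and for the summed cartilage and bone markers.

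Pou3f4 (ENSMUSG00000056854.4), a single transcript on chromosome X from 110814280 to 110817207, had 2471, 2506 and 2068 normalized counts in the Kir2.1-OE pools and 1854, 1820 and 2066 in the controls. Kir2.1-OE replicate 3 and control replicate 3 were nearly equal. The means were 2348 ± 243 (SD, n = 3 pools) and 1913 ± 133 (SD, n = 3). This is 0.30 on the log2 scale (standard error 0.0916). In the edgeR QL test Pou3f4 had an adjusted p of 0.0229, and 50.8% of all genes tested passed 0.05, but its fold change stayed under 1.5. Without Kir2.1-OE replicate 2 the log2 fold change of Pou3f4 was 0.22 (edgeR QL test, adjusted p = 0.117), and its adjusted p likewise exceeded 0.05 in the fits that omitted Kir2.1-OE replicate 1, control replicate 1 or control replicate 2.

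Tbx18 (ENSMUSG00000032419.8), on chromosome 9 from 87702800 to 87731260, differed least. The Kir2.1-OE pools held 6288, 6209 and 6015 normalized counts of Tbx18, and the control pools 6294, 6135 and 5925. The 2 groups covered nearly the same narrow range. With means of 6170 ± 140 (SD, n = 3 pools) and 6118 ± 185 (SD, n = 3), Tbx18 differed by 0.012 on the log2 scale (standard error 0.0652, edgeR QL test, adjusted p = 0.890). Its sign changed under upper quartile scaling, to -0.077. The annotated exons of Tbx18 share 970 bases with an opposite-strand locus, D030062O11Rik, and the sources do not name a strand setting, so reads of that locus could not be told apart from reads of Tbx18.

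Together the 6 genes took 1.20%, 1.30% and 0.999% of the assigned reads of the Kir2.1-OE pools and 0.793%, 0.989% and 1.19% of those of the controls, which overlapped (exact permutation test, two-sided, p = 0.20). Otos, Emilin2, Coch and Otor ranked 8, 23, 25 and 38 by mean normalized count among all genes tested, whereas Tbx18 ranked 1122 and Pou3f4 ranked 4083. Levels between genes were compared as CPM per kb of the longest annotated transcript. On that scale the controls held 2264 ± 159 of Otor, 1425 ± 367 of Otos, 688 ± 208 of Coch, 364.5 ± 70.8 of Emilin2, 34.8 ± 1.05 of Tbx18 and 17.4 ± 1.21 of Pou3f4 (SD, n = 3 pools each). The ranges of neighbours in this order did not overlap in the controls.

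In the Kir2.1-OE pools the order of these levels was the same, but the upper 4 genes lay closer, at 1348 ± 135 for Otor, 1268 ± 217 for Otos, 1065 ± 135 for Coch and 895 ± 199 for Emilin2 CPM per kb (SD, n = 3 pools each). The ranges of Otor and Otos overlapped, as did those of Otos and Coch and those of Coch and Emilin2. Tbx18 at 35.1 ± 0.799 and Pou3f4 at 21.4 ± 2.21 CPM per kb remained apart from them and from each other. The longest transcript of Otos, with 2990 nt, is a retained intron, while its RefSeq-matched mRNA has 704 nt. With the latter length Otos came first, at 6054 ± 1557 CPM per kb in controls and 5386 ± 922 in Kir2.1-OE mice (SD, n = 3 pools). With the median length of the annotated transcripts, which is 479 nt for Emilin2, Emilin2 came first in both groups, at 2998 ± 582 CPM per kb in controls and 7362 ± 1634 in Kir2.1-OE mice (SD, n = 3 pools).

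The 6 genes did not move in step. Ratios of reads between 2 of these genes within a pool are free of the scaling between libraries, and all 15 pairs were computed after the values had been seen. They are not free of the trend of fold changes with transcript length that is described below. The ratio of Coch to Otos was 0.798, 0.713 and 0.761 in the Kir2.1-OE pools and 0.419, 0.415 and 0.455 in the control pools. This ratio varied little within either group although the counts of both genes varied, and its difference was 0.82 on the log2 scale (standard error 0.0629). The ratio of Otor to Emilin2 changed most, from 1.85, 1.32 and 1.42 in the control pools to 0.277, 0.352 and 0.511 in the Kir2.1-OE pools. Both pairs lay closer in a model with length and GC offsets from RefSeq-matched transcripts. There Coch and Otos had log2 fold changes of 0.78 and 0.32, against 0.63 and -0.17 without offsets. Otor and Emilin2 had -0.25 and 1.01, against -0.75 and 1.30.

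Between the 2 genes whose RefSeq-matched transcripts are both shorter than 1000 nt, the ratio of Otos to Otor was 3.15, 3.33 and 2.44 in the Kir2.1-OE pools and 1.53, 2.08 and 2.31 in the control pools. The groups did not overlap, although Kir2.1-OE replicate 3 and control replicate 3 were close. The ratio of Coch to Emilin2, both higher in Kir2.1-OE mice, was 0.696, 0.836 and 0.949 in the Kir2.1-OE pools and 1.18, 1.14 and 1.49 in the control pools, with the lower ratios all in Kir2.1-OE. The groups did not overlap for 11 of the 15 ratios. Each of these 11 had p = 0.10 in an exact permutation test (two-sided), the smallest possible, and 0.136 after Benjamini-Hochberg adjustment over the 15 ratios. The 15 ratios share genes and are not independent. Ratios between other genes were not computed, so the share without overlap among gene pairs in general is not known. For single genes that share was 61.6% of all genes tested.

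**Figure D2:**
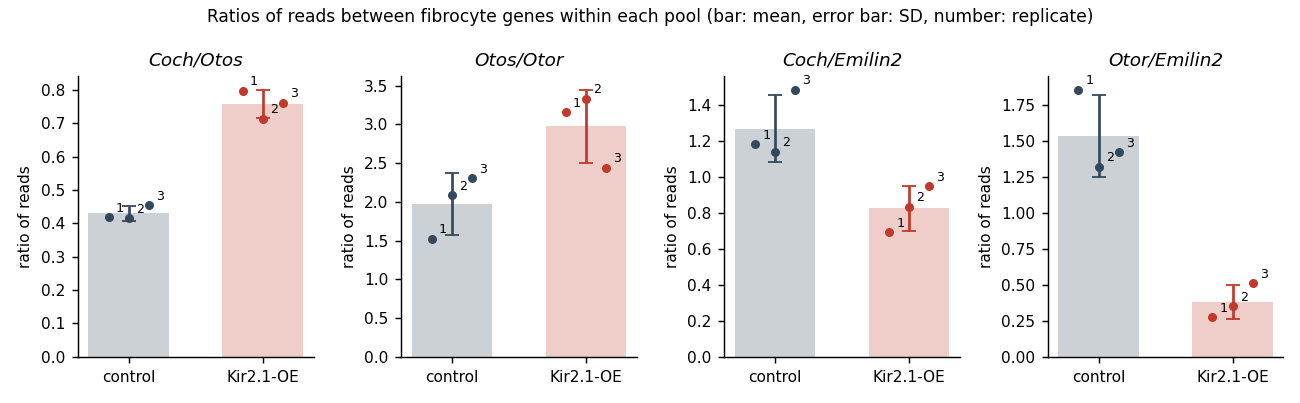
Ratio of reads (y axis, linear from 0, not corrected for length) between pairs of fibrocyte genes within each pool; bars are means, error bars SDs (n = 3 pools) and numbers the replicate numbers. The ratio Coch/Otos forms 2 tight groups, near 0.430 in controls and 0.757 in Kir2.1-OE mice, and Otor/Emilin2 goes from 1.53 to 0.380.

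In these libraries longer transcripts tended to have higher log2 fold changes, with a Spearman's rho of 0.584 between the fold change and the RefSeq-matched length over 15195 genes, which are not independent replicates. Otor (949 nt) and Otos (704 nt) fall among the 904 tested genes under 1000 nt, whose median log2 fold change was -0.50 with quartiles of -0.66 and -0.29. Otor, at -0.75, lay below these quartiles and Otos, at -0.17, above them. Coch (2681 nt), Pou3f4 (2928 nt) and Emilin2 (3939 nt) fall among 6161 genes of 2000 to 4000 nt with a median of -0.02 and an upper quartile of 0.28, and all 3 lay above that quartile. Tbx18 (4679 nt) lay below the lower quartile, 0.04, of the 4214 genes of 4000 to 8000 nt, whose median was 0.34.

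**Figure D3:**
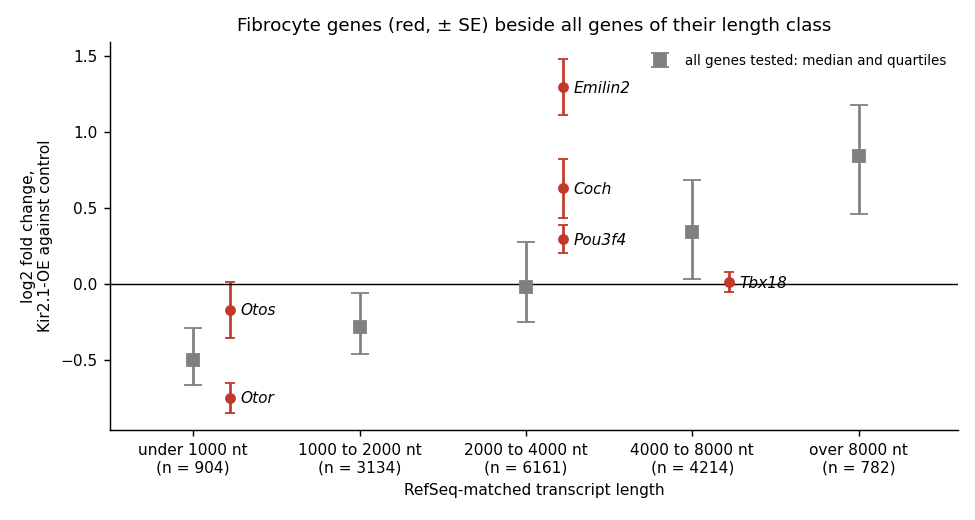
Log2 fold change, Kir2.1-OE against control (y axis), by class of RefSeq-matched transcript length (x axis); grey squares and bars are the median and quartiles of all genes tested in the class, and red points with bars are the 6 genes with their standard errors. The class medians climb from -0.50 to 0.84, and Emilin2, Coch, Pou3f4 and Otos lie above their class while Otor and Tbx18 lie below it.

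The model was therefore also fitted with offsets meant to take out each library's trend with transcript length and GC content. For genes whose longest transcript exceeds 8000 nt, the median log2 fold change was 0.81 without offsets and 0.28 with offsets from that transcript. The trend was thus not fully removed among the longest genes. With offsets from the longest transcript, Emilin2 (log2 fold change 1.05, adjusted p = 0.00325) and Coch (0.83, adjusted p = 0.0114) were called higher by the edgeR QL test, as were 8.43% of all genes tested. Otor then had a log2 fold change of -0.24 (edgeR QL test, adjusted p = 0.0592) and was not called, while 2.20% of all genes were called lower. Pou3f4 had 0.38, Otos -0.10 and Tbx18 -0.085 on the log2 scale. With offsets from the RefSeq-matched transcript, which changed the length of Otos alone among the 6, Otos moved to 0.32 (edgeR QL test, adjusted p = 0.204) and Emilin2 (1.01) and Coch (0.78) alone were called among the 6, against 7.99% higher and 1.78% lower calls over all genes.

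**Figure D4:**
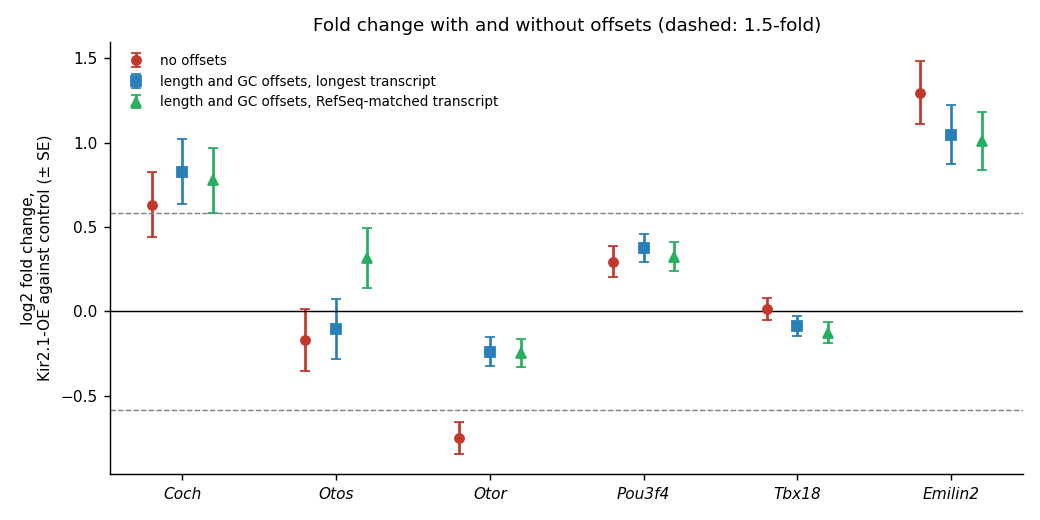
Log2 fold change with its standard error (y axis) of each of the 6 genes (x axis) in the model without offsets and with length and GC offsets from the longest or the RefSeq-matched transcript; dashed lines mark a 1.5-fold change. Emilin2 and Coch stay above the upper line in all 3 models, Otor moves from -0.75 to between -0.25 and -0.24, and Otos goes from -0.17 to 0.32 with its RefSeq-matched length.

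Among the relatives of the 6 genes, Vit, the closest relative of Coch with the same LCCL and von Willebrand factor A domains, differed by 0.17 on the log2 scale (edgeR QL test, adjusted p = 0.398) at 2291 ± 312.5 against 2036 ± 461 normalized counts (SD, n = 3 pools). In the MIA family, Mia, which like Otor encodes a short secreted protein, had 21370 ± 1475 against 29170 ± 1715 normalized counts and a log2 fold change of -0.45, under the 1.5-fold threshold. The log2 fold change of Mia was 0.04 with the length and GC offsets. Mia3, which encodes a large protein of endoplasmic reticulum exit sites that helps to load collagen for export, was called higher (1.14), also with the offsets (1.33). Those offsets took 2961 nt as the length of Mia3, which is short for a large protein. Whether the sequenced transcripts of Mia3 have that length was not tested, so its value with the offsets is uncertain. Mia2 had no more than 16 counts in any pool.

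In the EMILIN family, Mmrn2, a gene of endothelial cells, was called higher along with Emilin2, with a log2 fold change of 0.99, or 0.83 with the offsets. Emilin1 and Emilin3 had 0.45 each and were not called, and Mmrn1 had at most 38 counts in any pool. Of the 4 POU class III genes, the other members Pou3f1 (1.01), Pou3f2 (1.02) and Pou3f3 (0.70) were called higher while Pou3f4 was not, and with the offsets Pou3f2 (0.86) alone was called. By longest transcript, Pou3f2 (5587 nt) and Pou3f3 (7409 nt) fall among genes of 4000 to 8000 nt, of which 26.3% were called higher. Pou3f1 (3849 nt) falls among genes of 2000 to 4000 nt, of which 6.69% were. The shares called higher over all genes tested, for each of these families, were 15.5% without and 8.43% with the offsets. In the T-box subfamily of Tbx18, Tbx1 had a log2 fold change of 0.32 and Tbx15 of -0.08 without a call, and Tbx10, Tbx20 and Tbx22 did not pass the count filter, with at most 4 counts in any pool.

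Of 11 genes that serve K+ recycling and ion and water transport in fibrocytes, 2 were called higher, 1 lower and 8 were not called, and their median log2 fold change was 0.08. The shares over all genes tested, here and for the matrix genes below, were 15.5% higher and 5.08% lower. Aqp1, a water channel gene known from type III fibrocytes, fell from 4330 ± 699 to 2599 ± 332 normalized counts (SD, n = 3 pools). Its log2 fold change was -0.74 (edgeR QL test, adjusted p = 0.00138), or -0.68 with the offsets. Which cells of the pools its reads came from was not measured. The transporter gene Slc4a11 was called at 0.64 although its pools overlapped between the groups, and Kcnj16, a K+ channel gene, had 0.58, just under the threshold. With the offsets Kcnj16 (0.74) was called and Slc4a11 was not. Slc12a2, which encodes the Na+/K+/Cl- cotransporter, and the gap junction genes Gjb2 and Gjb6 had log2 fold changes of 0.40, 0.04 and 0.08 without a call.

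Of 12 genes of fibrous matrix, 3 were called higher and none lower, and the median was 0.24. The 3 called genes, Fn1 (fibronectin, 1.17), Fbn1 (fibrillin, 0.90) and Tnc (tenascin, 0.84), have long transcripts of 7106 to 11971 nt, and with the offsets their log2 fold changes were 0.44, 0.11 and 0.20, without a call, while Sparc (0.68) and Mgp (0.61) were called. Among small leucine-rich proteoglycan genes, Dcn and Lum had -0.41 and -0.49, and Fmod and Ogn had 0.36 and 0.13, all without a call. With the offsets Dcn, Lum, Fmod and Ogn had -0.27, -0.19, 0.35 and 0.44. The edgeR QL test, DESeq2 and limma-voom each called 0 of 8 otic mesenchyme regulators. Their log2 fold changes ran from -0.38 (Prrx2) to 0.50 (Epha4, which acts in otic mesenchyme in the guidance of spiral ganglion axons), with a median of 0.09. Of them, 4 genes (Epha4, Foxc1, Tbx2 and Prrx2) had adjusted p-values of 7.26e-04 to 0.0325 in the edgeR QL test but stayed under 1.5-fold. Over all genes tested, 50.8% had an adjusted p below 0.05. The summed level of the 12 matrix genes was 14110 to 15790 CPM in the Kir2.1-OE pools and 10820 to 12930 CPM in the controls. Sparc, which encodes a collagen-binding matrix protein, took most of this sum, and the other 11 genes together stood at 3683 to 4100 CPM in the Kir2.1-OE pools and 3871 to 4213 CPM in the controls, which overlapped. The summed level of the 11 transport genes was 5295 to 5440 and 4714 to 5225 CPM.

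**Figure D5:**
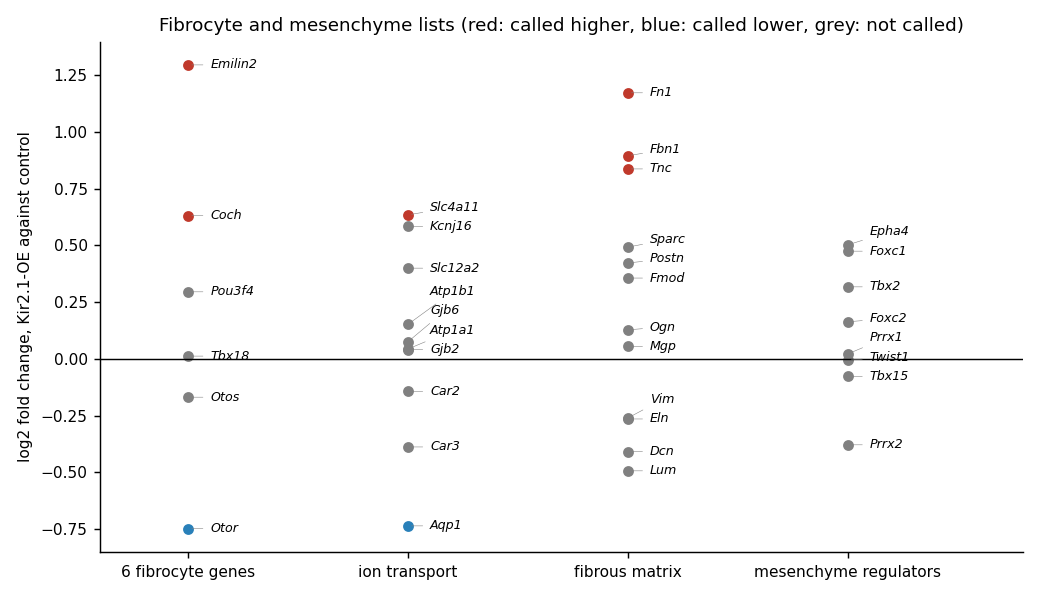
Log2 fold change, Kir2.1-OE against control (y axis), of genes in 4 lists (x axis): the 6 fibrocyte genes, 10 of the 11 ion and water transport genes, 12 fibrous matrix genes and 8 mesenchyme regulators. Red points were called higher, blue points lower and grey points not called; Emilin2 at 1.30 is the highest point and Otor at -0.75 and Aqp1 at -0.74 are the lowest.

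The genes with the most similar profile were sought by the Euclidean distance of log2 CPM, centred on each gene's mean over the 6 libraries, among 13644 genes that averaged 50 or more normalized counts. Such distances combine the difference between the groups with the spread within them and are given as a description. Nearest to Emilin2 were Aim1 (distance 0.186), Lamc3 (0.232) and Tns4 (0.236). Nearest to Coch were Psapl1 (0.171), Nat8l (0.214) and Gpr182 (0.218), and nearest to Otos were Rsph1 (0.0985), 4933439C10Rik (0.114) and Srgn (0.219). Nearest to Otor were Tmem160 (0.0839), Nme2 (0.0844) and Ndufa2 (0.0850), whose longest transcripts have 815, 1012 and 572 nt. Pou3f4 lay nearest to Polg, Sfi1 and Mocs1 (0.0664 to 0.0700), and Tbx18 to Mxi1, Cyhr1 and Elf2 (0.0427 to 0.0561).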

How the data were processed

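Poly(A) RNA of P9 cochlear pools was sequenced by the authors, mapped to mm10 with the nf-core RNA pipeline and counted per gene with Salmon; tool versions and the gene annotation are not given in the sources used here. The deposited values are expected counts per gene, of which 6.95% were not whole, divided by neither length nor library size. Libraries held between 35430946 and 41205051 reads, and 0 counts allow a share of up to 8.47e-06% in the smallest (3 counts, counting error only). Salmon's estimates can be split between similar genes.

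Counts were rounded and fitted with edgeR 4.0.16 in R 4.3.3 (TMM, filterByExpr, quasi-likelihood test, genotype as the only term, all 6 libraries, Benjamini-Hochberg over 15303 genes). The standard error is the log2 fold change divided by the root of the F statistic. Within a group, libraries differed beyond sampling noise (chi-square per degree of freedom of at least 16.2). Transcript lengths came from GENCODE vM21, in which 23376 of 24411 symbols were matched directly and 659 by another symbol. Offsets were loess trends (span 0.4) on log length and GC content.

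The 6 genes, the lists and the rule for named genes (the 6 genes, up to 2 highest and 2 lowest called genes per list, family members, the 3 nearest profiles; Fbn1 and uncalled list genes were named in addition, after their values were seen) were chosen with earlier results of these data known. Alternatives were other scalings and filters, a replicate block, offsets, DESeq2 1.42.0, limma-voom (limma 3.58.1), glmTreat at a log2 fold change of 0.6, no fold threshold and each library left out. Offsets and levels from RefSeq-matched transcripts were added after seeing the data. A called gene of the transport list is not reported here.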

Additional observations from a re-analysis of the deposited data

How the results depend on the processing

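Emilin2 kept its direction and call under all 19 alternatives, and no alternative gave Otos or Tbx18 a call. Upper quartile scaling gave 0.54 for Coch and -0.077 for Tbx18, with 1 of the 6 genes called higher and 1378 of all genes lower. Length and GC offsets gave -0.24 for Otor and -0.085 for Tbx18, with 0 of the 6 genes called lower and 1290 of all genes higher and 336 lower. With the replicate block (pool number as a term) added to the offsets these values were -0.24 and -0.085, 0, 1014 and 273. Offsets from RefSeq-matched transcripts gave 0.32 for Otos, -0.25 for Otor and -0.13 for Tbx18, with 0 of the 6 called lower and 1222 and 272 of all genes called. With glmTreat at 0.6 (log2) neither Coch (0.63) nor Otor (-0.75) was called, which left 1 gene higher and 0 lower of the 6, and 832 and 57 of all genes. Without a fold change threshold Pou3f4 (0.30) was called too, with 4184 and 3590 of all genes. Leaving out each library in turn gave log2 fold changes of 0.44 to 0.88 for Coch, 1.14 to 1.45 for Emilin2, -0.82 to -0.68 for Otor, -0.34 to 0.029 for Otos, 0.22 to 0.37 for Pou3f4 and -0.017 to 0.032 for Tbx18. Tbx18 was at -0.013 without Kir2.1-OE replicate 1, at -0.0100 without control replicate 3 and at -0.017 without Kir2.1-OE replicate 2. Between 1 and 2 of the 6 genes were then called higher and 1 lower, and 1878 to 2527 of all genes were higher and 536 to 1074 lower. The cause of these differences was not tested.

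The replicate block alone changed no call of the 6 genes, with log2 fold changes of 0.67 for Coch and 1.29 for Emilin2, and gave 2220 and 718 calls over all genes. Same-numbered pools did not deviate together (correlations of -0.106, -0.232 and -0.213 for replicates 1 to 3), and the column of control replicate 1 carries the number 4 in its file. The controls were littermates, but the labels do not say whether same-numbered pools were paired. Of the 15 pairs of genes, 11 kept their order of level per length with the median transcript length and 14 with the RefSeq-matched length. By the fold change threshold of the main analysis, changes under 1.5-fold were not called whatever their p-value.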
